A study of Arabidopsis thaliana with 12 samples.

Results

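Loss and gain of SAHY1 (AT2G01640) were set against each other directly: the 3 root arrays of the sahy1 mutant were compared with the 3 root arrays of a line that overexpresses the gene, SAHY1OE, across all probe sets that are not array controls. These are 6 of the 12 arrays of the series, and 13834 of 22746 probe sets passed a filter on low signals and were tested. Roots came from Arabidopsis thaliana plants aged 12 d, of which 5 d were spent on a basal medium and 7 d on a fresh plate, and no group was given a further treatment. The groups were the T-DNA insertion mutant sahy1, the SAHY1 overexpression line 4-1 (SAHY1OE), Col-7, labelled as the wild type of SAHY1OE, and Col-0, labelled as the wild type of sahy1, with 3 arrays each, which the methods call biological triplicates. The labels give no allele number for the mutant, while the paper names sahy1-1, with an insertion in an exon, for its root arrays. SAHY1OE is 1 line. The paper describes plants with SAHY1-Myc under the 35S promoter of cauliflower mosaic virus, but no source used here ties line 4-1 to them. Since the labels tie the lines to different wild types, a difference between sahy1 and SAHY1OE can hold a difference between these backgrounds, and values of both wild types are therefore given beside many of the genes.

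SAHY1 is a protein of the nucleolus, the part of the nucleus where ribosomal RNA is made and cut and where ribosomal proteins are added to form the 40S and 60S subunits. Ribosome biogenesis factors carry out these steps without being part of the finished ribosome. In plants, many ribosomal proteins are encoded by several genes, which need not respond alike. Root hairs enlarge the surface of the root for uptake, and their outgrowth needs expansins, which loosen the cell wall.

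SAHY1 itself had signals of 65.5, 7.00 and 143 in sahy1 roots, against 20572, 20069 and 20789 in SAHY1OE roots. It gave 284, 259 and 252 in Col-7 and 451, 258 and 336 in Col-0. The sahy1 arrays lay below and the SAHY1OE arrays above all arrays of the wild types. The signal of SAHY1 averaged 71.8 ± 68.2 in sahy1 and 20477 ± 369.6 in SAHY1OE (SD, n = 3 each), a log2 fold change of -8.99 with a standard error of 0.72 (limma adjusted p = 6e-06; p = 0.1 in a two-sided exact permutation test, the lowest value possible with 3 arrays on each side). The log2 fold change of SAHY1 was -7.73 without sahy1 replicate 2, the array with the lowest signal, and -9.90 without sahy1 replicate 3. It was -7.88 after adding 32 to each signal. On 2 of the 3 sahy1 arrays SAHY1 lay under the level of the filter on low signals (110 to 122), so the size of the fold rests on signals near background. On which side of the insertion the probes lie is not known here.

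A signal here is the MAS5 intensity of a probe set, a group of short probes for 1 transcript, and a probe set is called when the limma adjusted p was under 0.05 and the fold above 2. Between sahy1 and SAHY1OE roots 299 probe sets were called, which is 2.16% of those tested, with 159 higher (1.15%) and 140 lower (1.01%) in sahy1. Of these, 152 stand for 1 named gene, 77 higher and 75 lower, while the platform table pairs 12 with several genes and 135 with no gene. A change above 4-fold was seen for 24 higher and 17 lower probe sets. A probe set was tested when all 3 arrays of some group passed the filter. Of the 159 higher calls 56 passed it in sahy1 alone, and of the 140 lower calls 5 in SAHY1OE alone. Among all 13834 tested, 226 passed in sahy1 alone and 94 in SAHY1OE alone. For these, some array of the other line lay below the filter, which favours a difference between the lines. At an adjusted p under 0.05 without the fold threshold 827 probe sets (5.98%) were higher and 840 (6.07%) were lower, and at an unadjusted p under 0.05 it was 14.2% and 13.4%. Over all 13834 the log2 fold change was above 0 in 52.2%, with a median of 0.02. The arrays of both lines were fully separated for 159 higher and 139 lower calls, and among all probe sets tested the sahy1 arrays lay above all SAHY1OE arrays in 16.4% and below them in 14.8%. With the methods' t-test, unpaired, adjusted by the Benjamini-Hochberg method and with the same fold, 44 probe sets passed (26 higher and 18 lower).

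**Figure D1:**
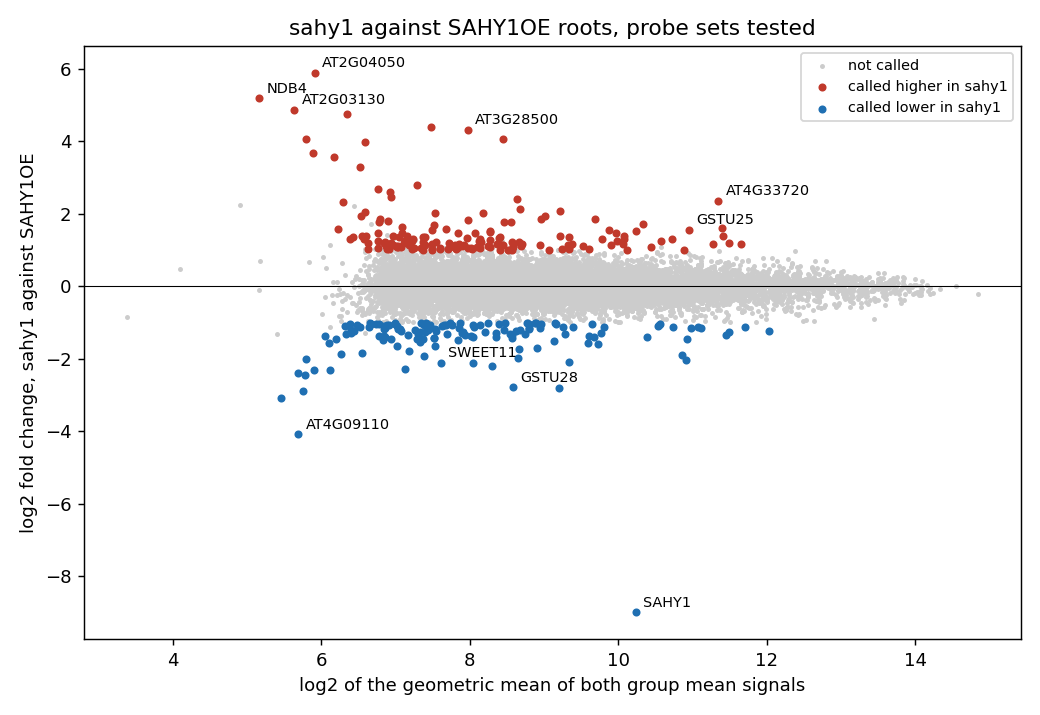
Log2 fold change of sahy1 against SAHY1OE roots (vertical axis) against the log2 of the geometric mean of both group mean signals (horizontal axis), 1 point per probe set tested. The 159 red points are called higher and the 140 blue points lower in sahy1, SAHY1 lies alone at -8.99, and many of the largest rises lie at low mean signals.

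In most called probe sets sahy1 stood apart from every other group. All 3 sahy1 arrays lay outside all 9 other arrays in 271 of the 299 called probe sets, 146 of them higher and 125 lower, against 14.5% of all probe sets tested (7.36% above and 7.11% below). All 3 SAHY1OE arrays lay outside all 9 others in 14 of the 299, against 1.40% of all probe sets tested (0.549% above and 0.846% below). By group means on the log2 scale, both wild types were nearer to SAHY1OE in 265 of the 299 (88.6%), namely 136 of the higher and 129 of the lower. In 29 (9.70%) each wild type was nearer to the line it is labelled for, in 2 each was nearer to the other line, and in 3 both were nearer to sahy1. SAHY1 is the named gene of these last 3. If SAHY1OE is put at 0 and sahy1 at 1, the mean of both wild types lay at a median of 0.04 over the 299 probe sets, with quartiles of -0.09 and 0.20, and 11 lay between 0.4 and 0.6.

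**Figure D2:**
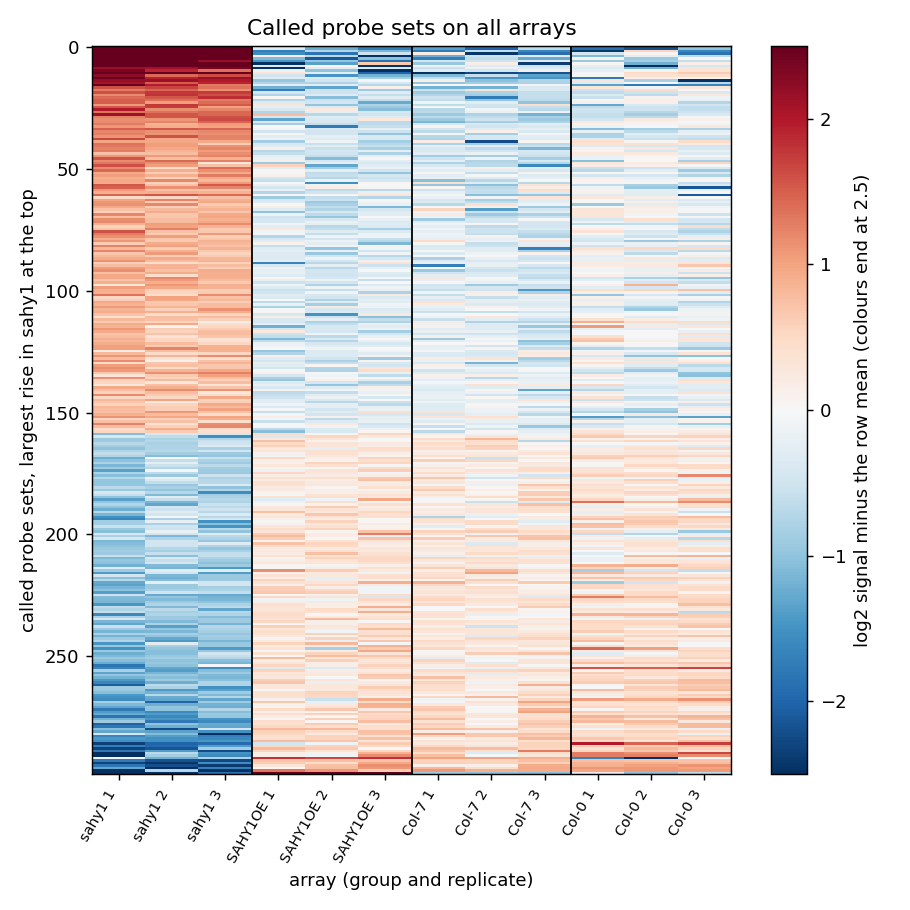
Log2 signal minus the mean of the row for the 299 called probe sets (rows, sorted by the log2 fold change of sahy1 against SAHY1OE) on the 12 arrays (columns, by group and replicate). Colours end at 2.5 on either side; the 3 sahy1 columns differ from the 9 others in most rows, and in 265 rows both wild types are nearer to SAHY1OE than to sahy1 by group means. In 14 rows, among them the lowest, SAHY1, all SAHY1OE columns lie outside the 9 others.

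Each line was also fitted against each wild type, and these comparisons share arrays with each other and with that of sahy1 and SAHY1OE. Against Col-7, 186 probe sets (1.34%) were higher and 141 (1.02%) lower in sahy1 roots, 2.36% of those tested. Against Col-0, 328 (2.37%) were higher and 244 (1.76%) lower in sahy1 roots, 4.13% in all. SAHY1OE roots gave far fewer calls against Col-7, with 2 higher (0.0145%) and 1 lower (0.00723%), 0.0217% in all by limma. Of the 13834 tested, 652 had an unadjusted p under 0.05 by limma. That is a smaller share than the threshold of 0.05 would let through with no difference at all. Against Col-0, 173 (1.25%) were higher and 52 (0.376%) lower in SAHY1OE roots, 1.63% in all. The 3 probe sets called between SAHY1OE and Col-7 are SAHY1, the MATE transporter gene AT1G71140 and QQS, an orphan gene that affects starch. AT1G71140 had signals of 87.7, 107 and 94.7 in SAHY1OE roots, against 25.1, 22.1 and 43.9 in Col-7 roots. It gave 135, 141 and 138 in sahy1 and 100, 108 and 101 in Col-0, so it was low in Col-7 alone. Col-7 was also called lower than Col-0 in this gene (log2 fold change -1.83, limma adjusted p = 5.91e-05). AT1G71140 was not called between sahy1 and SAHY1OE (log2 fold change 0.52, limma adjusted p = 0.102). QQS gave 58.4, 48.3 and 34.2 in sahy1 and 2.17, 8.95 and 45.9 in SAHY1OE, against 938, 772 and 596 in Col-7 and 1.82, 10.7 and 9.18 in Col-0. It was high in Col-7 alone, and it was not called between sahy1 and SAHY1OE either (log2 fold change 2.25, limma adjusted p = 0.0966).

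Among genes of cytosolic ribosomal proteins, 6 were called higher in sahy1 than in SAHY1OE roots and none lower. AT3G28500, an acidic P2 protein of the stalk of the large subunit, had signals of 1101, 1189 and 993 in sahy1, against 67.6, 33.9 and 71.4 in SAHY1OE. It gave 45.0, 93.9 and 61.2 in Col-7 and 155, 77.0 and 146 in Col-0, so that the mutant arrays stood far above all others. Its log2 fold change was 4.32 with a standard error of 0.32 (limma adjusted p = 2.93e-06), and 3.68 after adding 32 to each signal. AT2G40010, a P0 protein that carries the stalk, had 911, 925 and 974 in sahy1, against 216, 310.4 and 265 in SAHY1OE (log2 fold change 1.84, standard error (SE) 0.16, adjusted p = 1.15e-05 by limma). Its mean was 291 ± 53.9 in Col-7 and 241 ± 15.4 for Col-0 (SD, n = 3 each). AT5G59240, a protein S8e of the small subunit, had 797, 606 and 689 in sahy1, against 182, 216 and 211 in SAHY1OE (log2 fold change 1.77, SE 0.13, adjusted p = 2.61e-06 by limma). In AT5G59240 the wild types lay a little above SAHY1OE, at 251, 255 and 276 in Col-7 and 355, 315 and 309 in Col-0.

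The other calls of this kind were smaller. AT5G39850 of the small subunit averaged 1562 ± 335 in sahy1 and 653 ± 132 in SAHY1OE (SD, n = 3 each; 2.39-fold, limma adjusted p = 0.00258). AT4G30800, also of the small subunit, averaged 1683 ± 201 in sahy1 and 693 ± 168 in SAHY1OE (SD, n = 3 each; 2.47-fold, limma adjusted p = 0.000703), with 824 ± 119.8 in Col-7 and 1120.4 ± 141 in Col-0, so that each wild type was nearer to its own line. AT2G32220 of the large subunit averaged 519.5 ± 87.8 in sahy1 and 232 ± 9.09 in SAHY1OE (SD, n = 3 each; 2.22-fold, limma adjusted p = 0.000308). The calls of these 3 genes were lost with the methods' t-test. Of the 88 genes in the list of 40S proteins 42 were tested. Of these 3 were called higher and none lower, beside 1.15% and 1.01% of all probe sets tested. Of these 42 genes 38 lay above 0 on the log2 scale, around a median of 0.23, where 52.2% of all probe sets lay above 0 around a median of 0.02. At an unadjusted p under 0.05, 18 of the 42 were higher and 0 lower by limma, beside 14.2% and 13.4% of all probe sets. Of the 130 genes in the list of 60S proteins 74 were tested. Of these 3 were called higher and none lower (16 up and 0 down at an unadjusted p under 0.05 by limma), and 61 were above 0, with a median of 0.16. AT3G28500 passed the filter in sahy1 alone, and no other gene of both lists did. Between SAHY1OE and Col-7 no probe set of either list was called.

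Most of the ribosome biogenesis factors tested had log2 fold changes above 0. Their list holds 43 genes, of which 15 had a named probe set. Of 14 tested, 12 lay above 0 (52.2% of all probe sets), 6 passed a limma adjusted p of 0.05 upwards (5.98% of all probe sets), and 1 was called higher (1.15%), with a median of 0.44. That gene was AT3G15460, a homologue of the yeast 60S assembly factor BRX1, with 542, 546 and 528 in sahy1, against 175, 207 and 256 in SAHY1OE (log2 fold change 1.36, SE 0.16, adjusted p = 0.00017 by limma; not called by the methods' t-test). YAO, a WD40 protein of the nucleolus, averaged 704 ± 79.6 in sahy1 and 434 ± 71.9 in SAHY1OE (SD, n = 3 each), with a log2 fold change of 0.71 that stayed under the fold threshold (limma adjusted p = 0.0221). AT5G15550, a homologue of WDR12, stood at 0.65 (limma adjusted p = 0.0092). Genes of proteins that the study found together with SAHY1, among them AT5G15550, were not called. Neither limma nor the methods' t-test called any of the 12 tested, and the median was 0.11. By limma 3 were up and 0 down at an unadjusted p under 0.05, and 1, AT5G15550, was up at an adjusted p under 0.05.

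**Figure D3:**
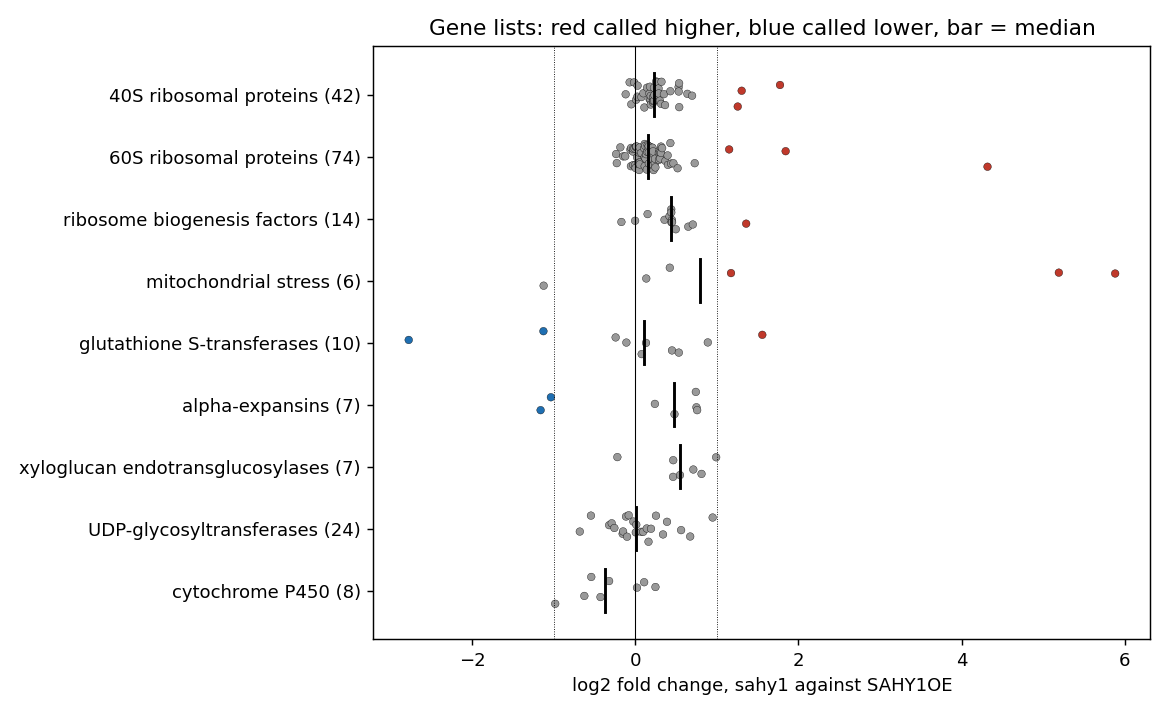
Log2 fold change of sahy1 against SAHY1OE roots for each probe set of 9 gene lists, with the number tested in brackets. Red points are called higher, blue points lower and grey points are not called, the bars are medians and the dotted lines mark a 2-fold change; the 40S and 60S lists lie just above 0 with 6 red points, and the expansins and glutathione S-transferases hold calls away from their medians.

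The ribosome and translation genes of the study's own table fell into separate sets here. The study chose these genes on the sahy1 and Col-0 arrays, so their count is not independent evidence of a direction. Of its 10 genes 9 had a named probe set and were tested, and AT3G18610 was not analysed here. Of the 9, 5 were called higher, beside 1.15% of all probe sets tested. They were AT3G28500, AT2G40010 and AT5G59240 above, the threonyl-tRNA synthetase gene AT1G17960 and the translation factor gene AT2G18720. AT1G17960 had 409, 506 and 521 in sahy1, against 128, 137 and 136 in SAHY1OE, with wild-type means of 105 ± 6.87 in Col-7 and 129 ± 31.5 for Col-0 (SD, n = 3 each), a log2 fold change of 1.83 between the lines (adjusted p = 1.18e-05 by limma). AT2G18720 had 165, 160.4 and 188 in sahy1, against 2.63, 10.2 and 40.9 in SAHY1OE, where it was near background (log2 fold change 4.05, limma adjusted p = 0.005), and it passed the filter in sahy1 alone, as did AT3G28500. The size for AT2G18720 was 2.10 after adding 32, it was 3.06 without SAHY1OE replicate 1 and 5.04 without SAHY1OE replicate 3, and its call was lost with no filter (limma adjusted p = 0.0552). HLL, a mitochondrial ribosomal protein, averaged 478 ± 114 in sahy1 and 251 ± 19.0 in SAHY1OE (SD, n = 3 each), with a log2 fold change of 0.90 below the fold threshold (limma adjusted p = 0.00499).

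AT3G49910, AT5G44710 and AT5G48760, also of that table, were not called between the lines and were lower in Col-0 than in Col-7 (called by limma in all 3). AT3G49910 averaged 15904 ± 1194 in sahy1 and 17624 ± 1209 in SAHY1OE, with 15967 ± 1612 in Col-7 and 7960.1 ± 1154 for Col-0 (SD, n = 3 each). AT5G44710 averaged 1227 ± 61.6 in sahy1 and 1182 ± 54.3 in SAHY1OE, with 1152 ± 12.9 in Col-7 and 535 ± 14.3 for Col-0 (SD, n = 3 each). AT5G48760 averaged 3345 ± 274 in sahy1 and 3068 ± 283 in SAHY1OE, with 2870.1 ± 378 in Col-7 and 1241 ± 209.9 for Col-0 (SD, n = 3 each). Between sahy1 and SAHY1OE the log2 fold change was -0.15 for AT3G49910, 0.05 for AT5G44710 and 0.13 for AT5G48760, with standard errors of 0.13, 0.10 and 0.15 (limma adjusted p = 0.516, 0.786 and 0.632).

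A pair of genes of the mitochondrial stress list gave the largest rises among named genes in sahy1 roots. NDB4, an external NADH dehydrogenase of mitochondria that passes electrons on without pumping protons, had signals of 217, 190.4 and 216 in sahy1, against 9.61, 5.11 and 3.72 in SAHY1OE. It gave 4.80, 3.08 and 7.67 in Col-7 and 3.33, 2.68 and 5.996 in Col-0, all near background. The log2 fold change of NDB4 was 5.19 (standard error 0.37, limma adjusted p = 2.03e-06), and 2.65 after adding 32. AT2G04050, a MATE efflux transporter, had 314, 344 and 395 in sahy1, against 2.13, 25.04 and 3.90 in SAHY1OE, with means of 13.3 ± 14.1 in Col-7 and 9.50 ± 3.08 for Col-0 (SD, n = 3 each). Its log2 fold change was 5.88 (standard error 0.76, limma adjusted p = 0.000361), 3.21 after adding 32, and between 5.15 without SAHY1OE replicate 1 and 6.92 without SAHY1OE replicate 2. NDB2, a second dehydrogenase of the NDB family, was well above background in all groups, with 1827, 1262 and 1756 in sahy1, against 744, 663 and 715 in SAHY1OE (2.26-fold, limma adjusted p = 0.000511). This list holds 20 genes, and of its 9 named probe sets 6 were tested. NDB4, AT2G04050 and NDB2 were called higher and none lower, beside 1.15% and 1.01% of all probe sets tested. NDB4 and AT2G04050 passed the filter in sahy1 alone, which favours a difference between the lines. This leaves NDB2 as the call of this list that did not depend on the filter. AT5G43450, at -1.12, was not called (limma adjusted p = 0.0675). The AAA-type ATPase genes AT2G18190, AT1G43910 and AT5G17760, named after their values were seen, had rises of 2.69, 2.03 and 1.25 in log2 units (limma adjusted p = 0.0011, 1.51e-06 and 0.000189). Of these, AT2G18190 passed the filter in sahy1 alone, which favours a difference between the lines.

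Other named genes with the largest rises came from several families. AT2G03130, which holds a domain of ribosomal protein L12 and ClpS, had 324, 199.6 and 278 in sahy1, against 6.27, 12.3 and 9.24 in SAHY1OE (log2 fold change 4.87, SE 0.56, adjusted p = 0.00014 by limma, and 2.84 after adding 32). AT5G60250, a RING-type zinc finger protein, and AT5G58610, a PHD finger protein, had log2 fold changes of 3.97 and 3.69 (limma adjusted p = 0.0123 and 0.00414), which were 2.69 and 1.99 after adding 32. With no filter the call of AT5G60250 was lost (limma adjusted p = 0.0876). Leaving out 1 SAHY1OE array brought AT5G60250 to 3.20 and AT5G58610 to 2.52, without replicate 3 and replicate 1. AT2G34340 was well measured in all groups, with 809, 892 and 887 in sahy1, against 190.5, 185 and 212 in SAHY1OE, 139, 152 and 175 in Col-7 and 169, 182 and 203 in Col-0. Its log2 fold change was 2.14 with a standard error of 0.13 (limma adjusted p = 5.58e-07). AT2G43660, AT1G65370 and AT1G50050 completed the set, with log2 fold changes of 2.60, 2.08 and 2.05 (limma adjusted p = 0.00864, 6.93e-05 and 0.00135), and the sahy1 arrays lay above the SAHY1OE arrays in each. AT2G43660 was not called with no filter (limma adjusted p = 0.0732). AT2G03130, AT5G60250, AT5G58610, AT2G43660 and AT1G50050 passed the filter in sahy1 alone, which favours a difference between the lines.

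Genes of glutathione S-transferases, which couple glutathione to reactive compounds, were called in both directions. GSTU28 had 179, 135 and 128 in sahy1, against 986, 1018 and 994 in SAHY1OE, 905, 896 and 1028 in Col-7 and 1029.9, 999 and 1005 in Col-0. Its log2 fold change of -2.78 had a standard error of 0.13 (limma adjusted p = 1.15e-07). GSTU25 had 3773, 3142 and 3286 in sahy1, against 1199.7, 1247 and 1022 in SAHY1OE (log2 fold change 1.56, SE 0.13, adjusted p = 9.04e-06 by limma). GSTU26, the gene next to GSTU25, had 939, 1485 and 1064 in sahy1, against 2193, 2671 and 2638 in SAHY1OE (log2 fold change -1.13, SE 0.16, adjusted p = 0.000587 by limma), a value that was -0.99 and under the fold threshold without sahy1 replicate 1. Of 10 genes tested whose symbol begins with GST, these were the calls, 1 higher and 2 lower, beside 1.15% and 1.01% of all probe sets tested. The median of the 10 was 0.10, beside 0.02 over all probe sets. ATGSTF13, whose symbol begins with AT and is not among the 10, was also lower, with 211, 142 and 237 in sahy1, against 366, 373 and 474 in SAHY1OE (log2 fold change -1.06, SE 0.20, adjusted p = 0.00421 by limma). Its value fell under the fold threshold at -0.95 after adding 32, at -0.85 without sahy1 replicate 2 and at -0.94 without SAHY1OE replicate 3.

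Adjacent called genes went in the same direction in some pairs and in opposite directions in others. By the gene order of RefSeq (TAIR10.1), 150 called genes could be placed and 6 pairs stood side by side, of which 4 went the same way. With 77 named calls higher and 75 lower, many unrelated pairs would also agree, and an excess among neighbours was not tested. GSTU25 and GSTU26 went opposite ways, as did AT4G33720 and AT4G33730, both of the CAP family of secreted proteins to which pathogenesis-related protein 1 belongs. AT4G33720 had 5790.1, 6146 and 4909 in sahy1, against 836, 763 and 2048 in SAHY1OE (log2 fold change 2.35, SE 0.31, adjusted p = 0.000446 by limma). AT4G33730 had 121, 121 and 119 in sahy1, against 247, 242 and 381 in SAHY1OE (log2 fold change -1.24, SE 0.15, adjusted p = 0.000266 by limma). The remaining pairs, AT4G09100 with AT4G09110, AT3G29410 with AT3G29430, AT3G45700 with AT3G45710, and AT1G62500 with AT1G62510, were lower in sahy1 in both genes. Leaving out an array took some of these calls away: AT1G62510 had -0.97 without sahy1 replicate 1, AT1G62500 had -0.95 to -0.92 without sahy1 replicate 1 or 3 or SAHY1OE replicate 3, and AT3G45710 had -1.14 to -0.94 without sahy1 replicate 1 or 3 or SAHY1OE replicate 1 or 3 (limma adjusted p from 0.0696 to 0.124). AT4G09110, a RING-type protein, had 6.33, 44.2 and 2.44 in sahy1, against 183, 157 and 115 in SAHY1OE (log2 fold change -4.08, limma adjusted p = 0.0022), and its neighbour AT4G09100 had 66.9, 61.9 and 75.7 in sahy1, against 184, 206 and 182 in SAHY1OE (log2 fold change -1.48, limma adjusted p = 6.04e-06). The size for AT4G09110 was -1.96 after adding 32, -5.24 without sahy1 replicate 2 and -3.15 without sahy1 replicate 3. Neighbours can be related copies, and whether their probes read more than 1 gene was not tested. By chromosome, 22 of 1104 genes tested on chromosome 2, which holds SAHY1, were called higher (1.99%), against 0.678% to 1.13% on the other chromosomes, and 7 were called lower (0.634%). AT2G01610, separated from SAHY1 by 2 genes, was among the higher ones (log2 fold change 1.11, limma adjusted p = 0.00734, not called with no filter or without SAHY1OE replicate 3).

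Root hair genes and a sugar transporter were lower in sahy1. EXPA7, an expansin of root hairs, had 289, 417 and 288 in sahy1, against 708, 724 and 758 in SAHY1OE, and the wild types lay at 733 ± 101 in Col-7 and 680.1 ± 81.5 for Col-0 (SD, n = 3 each; log2 fold change -1.16, SE 0.16, adjusted p = 0.000634 by limma). EXPA18, also of root hairs, had 291, 329 and 305 in sahy1, against 584, 559.7 and 769.7 in SAHY1OE (log2 fold change -1.03, SE 0.15, adjusted p = 0.000796 by limma), and fell under the fold threshold at -0.99 without sahy1 replicate 1, at -0.89 without SAHY1OE replicate 3 and at -0.96 after adding 32. These were the 2 genes tested of the root hair list, which also were the only root markers with a named probe set, and their summed signal was 581 to 746 in sahy1, against 1283 to 1527 in SAHY1OE, 1311 to 1525 in Col-7 and 1304 to 1500.0 in Col-0. A smaller number of root hair cells and less RNA per cell cannot be told apart in whole roots. Of 7 expansins of the EXPA family tested, 2 (EXPA7 and EXPA18) were called lower and none higher, beside 1.01% and 1.15% of all probe sets, and EXPA4, EXPA9 and EXPA20 were 1.68-fold, 1.67-fold and 1.69-fold higher, under the fold threshold (limma adjusted p = 0.0053, 0.00392 and 0.00835). The median of the family was 0.48, and 1 of the 7, EXPA8, passed the filter in sahy1 alone.

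Peroxidase genes, named after their values were seen and with no list tested, went both ways. AT4G36430 had 3871, 3926 and 3271 in sahy1, against 1432, 1512 and 2070 in SAHY1OE (log2 fold change 1.16, SE 0.18, adjusted p = 0.00119 by limma). AT1G49570 was also higher, with 369, 273 and 310 in sahy1, against 139, 117 and 162 in SAHY1OE (log2 fold change 1.19, SE 0.17, adjusted p = 0.000851 by limma). AT1G34510 and AT3G49960 were lower, with log2 values of -2.40 and -1.66 (limma adjusted p = 0.00754 and 0.000511). The signals of AT1G34510 were near background, and its value was -1.30 after adding 32, -1.64 without sahy1 replicate 1 and not called with no filter (limma adjusted p = 0.0679).

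SWEET11, a transporter that moves sucrose across the plasma membrane, had 77.0, 96.1 and 101 in sahy1, against 274, 364 and 607 in SAHY1OE, 466, 438 and 568 in Col-7 and 1526, 1068 and 1284 in Col-0. Every sahy1 array was below every other array, and Col-0 was above all of them. The log2 fold change of sahy1 against SAHY1OE was -2.11 (standard error 0.24, limma adjusted p = 0.000134), and that of Col-7 against Col-0 was -1.39. SWEET2, a vacuolar sugar transporter of roots, averaged 707 ± 56.9 in sahy1 and 1395 ± 286 in SAHY1OE (SD, n = 3 each), just under 2-fold lower and not called (limma adjusted p = 0.00295).

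IVD, MCCA and MGL, genes of amino acid breakdown that were named after their values were seen and belong to no list tested here, were lower in sahy1. IVD, isovaleryl-CoA dehydrogenase, and MCCA, a subunit of methylcrotonyl-CoA carboxylase, act in the breakdown of leucine. IVD had 1251, 1653 and 1496 in sahy1, against 3295, 3579 and 2646 in SAHY1OE, 2453, 3312 and 2944 in Col-7 and 2192, 2654 and 2859.9 in Col-0 (log2 fold change -1.11, SE 0.16, adjusted p = 0.000974 by limma). MCCA averaged 1482 ± 175 in sahy1 and 3301 ± 646 in SAHY1OE (SD, n = 3 each; a fold of 2.21, adjusted p = 0.000867 by limma, under the fold threshold without SAHY1OE replicate 2). MGL, methionine gamma-lyase, averaged 404 ± 83.8 in sahy1 and 819 ± 108 in SAHY1OE (SD, n = 3 each; a fold of 2.05, adjusted p = 0.0025 by limma, under the fold threshold after adding 32 and without sahy1 replicate 1 or SAHY1OE replicate 2). BCAT4, the aminotransferase that starts the chain elongation of methionine for glucosinolates, was higher, with 2523, 2405 and 2934 in sahy1, against 1057, 762 and 1485 in SAHY1OE (log2 fold change 1.30, SE 0.21, adjusted p = 0.00184 by limma).

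**Figure D4:**
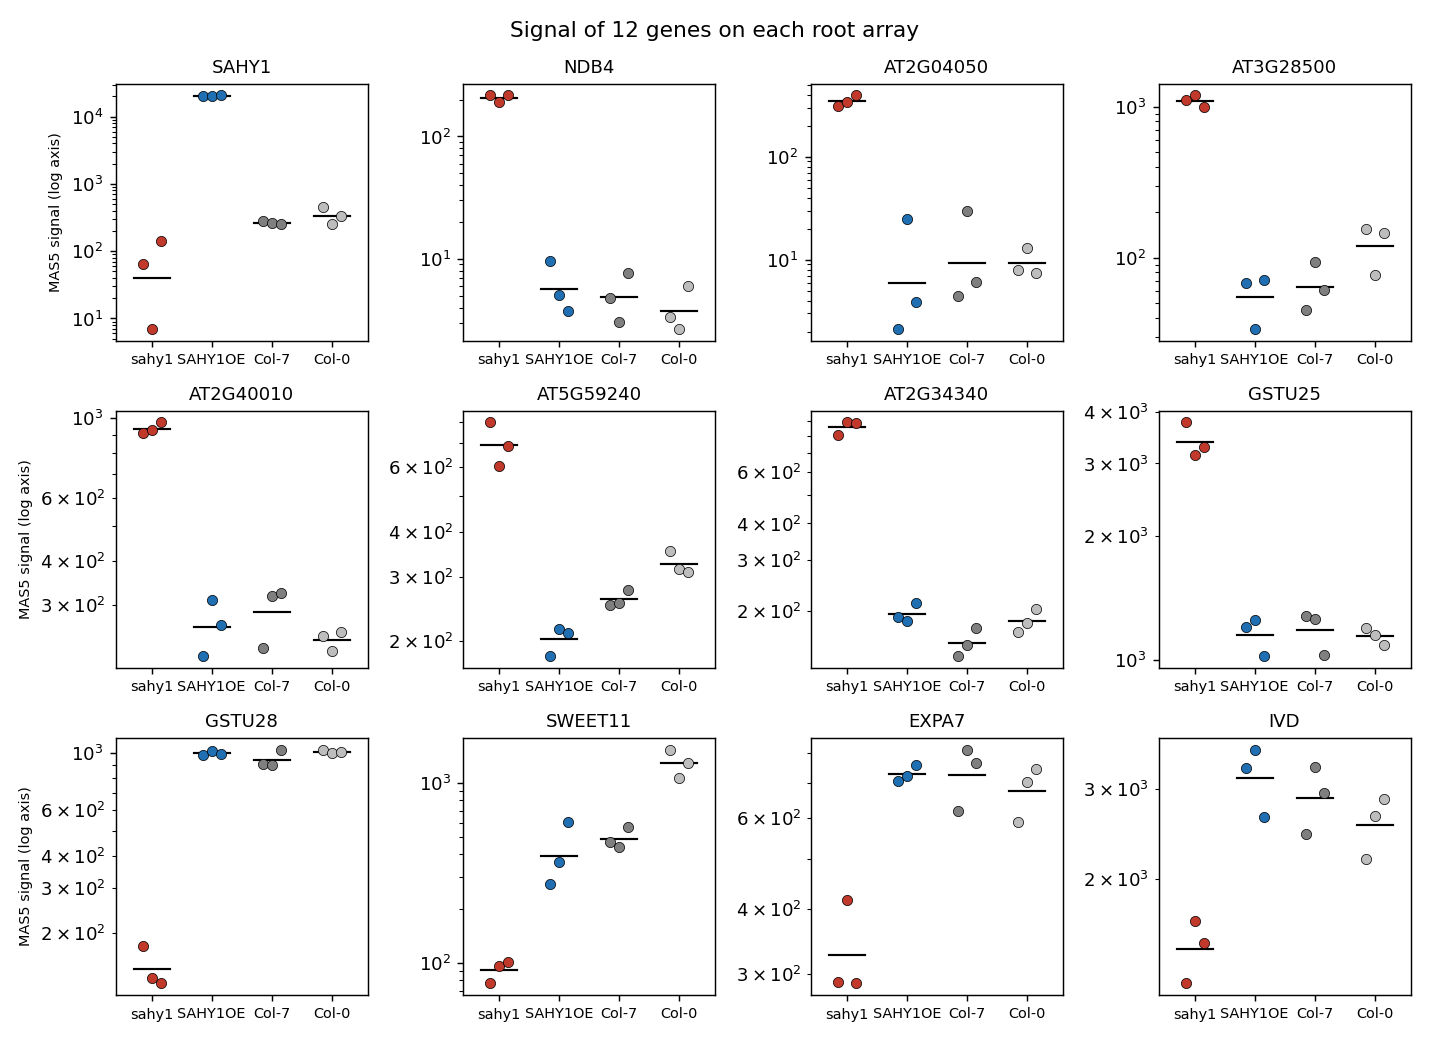
MAS5 signal (vertical log axes, each panel with its own range) of 12 genes on each of the 12 root arrays; points are arrays and bars are means on the log2 scale. The sahy1 points lie apart from all 9 other arrays in every panel, in that of SAHY1 the SAHY1OE points lie near 20477, and in that of SWEET11 the wild types also differ.

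The remaining named genes with large falls were AT1G80320, AT1G52820 and AT1G52800, all 2-oxoglutarate-dependent oxygenases, AT3G12540, AT4G16000, AT1G79990, AT4G24350, AT5G43230 and AT5G19800. AT1G52820 had 333, 315 and 293 in sahy1, against 1204, 1310.2 and 1484 in SAHY1OE (log2 fold change -2.08, SE 0.17, adjusted p = 6.6e-06 by limma), and AT1G52800 stood at -1.37 in log2 units (limma adjusted p = 0.000154). AT1G80320 was -3.08 at low signals, with -1.53 after adding 32 and -2.12 without sahy1 replicate 2. AT1G79990 had 143, 121 and 179 in sahy1, against 669, 687 and 651 in SAHY1OE (log2 fold change -2.20, SE 0.14, adjusted p = 1.01e-06 by limma). AT3G12540 and AT4G16000 had log2 fold changes of -2.29 (-1.53 after adding 32) and -2.27 (limma adjusted p = 3.48e-05 and 0.000509), and AT4G16000 had a higher signal on sahy1 replicate 3 (113) than on the others (41.4 and 45.6). AT4G24350 and AT5G43230 were lower by 4.96-fold and 4.01-fold, and AT5G19800 stood at -1.85 in log2 units (limma adjusted p = 0.0133, 0.0103 and 0.000363). AT4G24350 was near background in sahy1, with -1.29 after adding 32, -1.46 without sahy1 replicate 1 and no call with no filter (limma adjusted p = 0.0897). AT5G43230 was likewise -1.12 after adding 32, -1.28 without sahy1 replicate 3 and not called with no filter (limma adjusted p = 0.0775).

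Other lists gave no call, beside 1.15% of all probe sets called higher and 1.01% lower, with 14.2% and 13.4% at an unadjusted p under 0.05. Of 7 xyloglucan endotransglucosylases, which remodel the cell wall, none was called (6 up and 0 down at an unadjusted p under 0.05 by limma), with a median of 0.55, and the values nearest to the fold threshold were 0.99 for XTH20 and 0.81 for XTH18 (limma adjusted p = 0.00835 and 0.0156). In XTH20 the signal was 813 ± 105 in sahy1 and 418 ± 116 in SAHY1OE, with 429.8 ± 93.4 in Col-7 and 887 ± 108 for Col-0 (SD, n = 3 each), so that each line was near its own wild type. Of 8 cytochrome P450 genes none was called (0 up and 4 down at an unadjusted p under 0.05 by limma), with a median of -0.37 and the lowest value for CYP71B34 (-0.98, limma adjusted p = 0.00601). Of 24 UDP-glycosyltransferases (median 0.01, 4 up and 3 down at an unadjusted p under 0.05), 5 WRKY factors (median 0.04, 1 up and 0 down) and 5 histones (median 0.02, 0 up and 0 down), neither limma nor the methods' t-test called any. The same held for 3 genes each of the cell cycle, of auxin response and of green tissue, for 2 of cold and abscisic acid response and for 1 each of iron deficiency and salicylic acid defence, with 0 at an unadjusted p under 0.05 by limma. The lists of the cell cycle, auxin response and green tissue hold 24, 21 and 22 genes, so most of their members were not tested. The summed signal of the green tissue genes was 2880 to 3475 in sahy1, against 3006 to 3068 in SAHY1OE, 3398 to 3615 in Col-7 and 2200.4 to 2606 in Col-0, so that the lines overlapped. Members of the lists for auxin transport, phosphate starvation, nitrate, heat shock, jasmonate, class III peroxidases by symbol and seed storage were not tested.

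The fold changes between the wild types come from other arrays than those between sahy1 and SAHY1OE. Both comparisons share the filter and the spread, which were taken from all 12 arrays, so their calls are not independent. Col-7 roots were higher than Col-0 roots in 176 probe sets (1.27%) and lower in 74 (0.535%), 250 in all or 1.81% of those tested. Of the 299 probe sets called between the lines, 18 were also called between the wild types, which is 6.02% of the 299 and 7.20% of the 250. In 13 of the 18 the lines differed in the direction of Col-0 minus Col-7, as their labelled wild types do, and in 5 in the opposite one. AT3G24780 had 238, 248 and 290.4 in sahy1, against 52.9, 34.4 and 10.4 in SAHY1OE, and 6.79, 8.73 and 9.36 in Col-7, against 40.3, 58.8 and 65.8 in Col-0. The log2 fold change between the lines was 3.28 for AT3G24780 (limma adjusted p = 0.000333) and 2.60 without SAHY1OE replicate 3. AT3G24780 passed the filter in sahy1 alone, which favours a difference between the lines. AT5G38910, a germin-like protein, had 2019.6, 1628 and 1214 in sahy1, against 601, 534 and 485 in SAHY1OE, and 454, 437 and 495 in Col-7, against 1019, 1028 and 914 in Col-0. AT5G14650, a pectin lyase-like protein, had 607, 623 and 732 in sahy1, against 202, 198 and 170.4 in SAHY1OE, with 142 ± 17.99 in Col-7 and 294 ± 20.9 for Col-0 (SD, n = 3 each). In all 3 genes the sahy1 arrays lay above every array of both wild types, and Col-0 lay above Col-7. AT5G49870, a jacalin-type lectin, had 34.9, 15.9 and 21.2 in sahy1, against 128, 116 and 129.8 in SAHY1OE, and 73.6, 73.3 and 68.0 in Col-7, against 11.3, 1.64 and 36.7 in Col-0, with sahy1 near Col-0 and SAHY1OE above Col-7. Its log2 fold change between the lines was -2.45, and -1.50 after adding 32, and the call (limma adjusted p = 0.0448) was lost with no filter (adjusted p = 0.182 by limma) and when any of 10 of the 12 arrays was left out, with limma adjusted p from 0.055 to 0.117. AT5G49870 passed the filter in SAHY1OE alone, which also favours a difference between the lines.

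**Figure D5:**
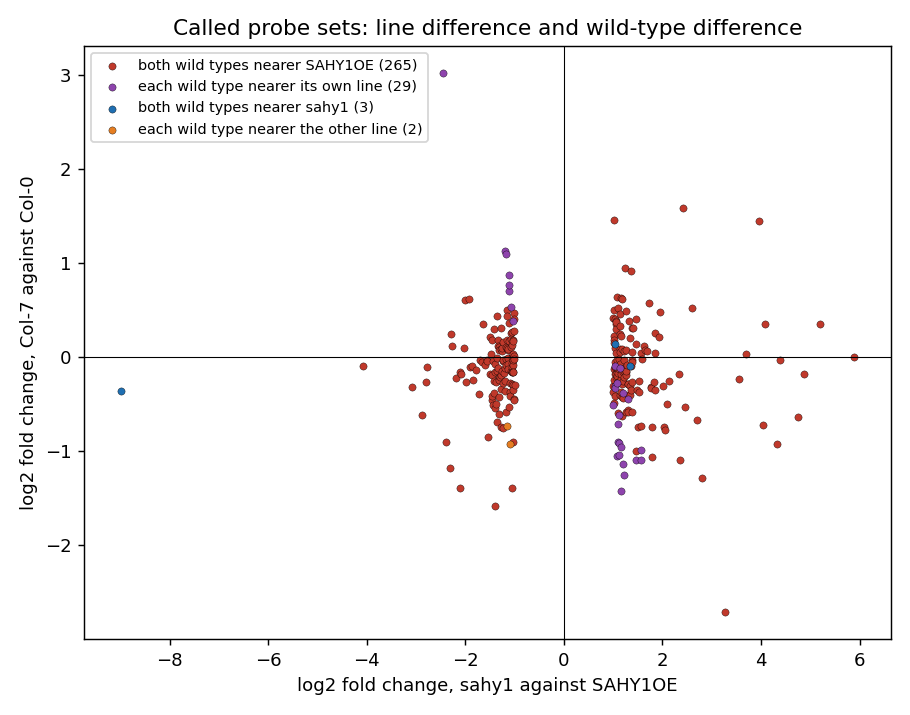
Log2 fold change of Col-7 against Col-0 (vertical axis) against that of sahy1 against SAHY1OE (horizontal axis) for the 299 called probe sets, which use separate arrays. Colours show to which line the wild-type means are nearer, and 265 points have both wild types nearer to SAHY1OE. The 29 points with each wild type nearer its own line lie in the upper left and lower right, as the definition of that class requires.

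AT4G12490, a lipid transfer protein, was high in sahy1, where its arrays also differed most, with 1439, 863 and 551, against 185, 182 and 136 in SAHY1OE. Col-7 had 229, 234 and 213, against 88.4, 65.5 and 71.7 in Col-0, a wild-type difference in the direction opposite to that of the lines. The log2 fold change between the lines was 2.41 (standard error 0.26, limma adjusted p = 9.26e-05). AT3G29410, a terpene synthase, averaged 496 ± 63.8 in sahy1 and 1353 ± 455 in SAHY1OE, with 1413 ± 275 in Col-7 and 4199.9 ± 271 for Col-0 (SD, n = 3 each), an order like that of SWEET11. Its log2 fold change between the lines was -1.40 (standard error 0.20, limma adjusted p = 0.000781).

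When each line was first set against the wild type of its label, the difference between sahy1 minus Col-0 and SAHY1OE minus Col-7 was called in 530 probe sets, 302 higher (2.18%) and 228 lower (1.65%), 3.83% of those tested. It uses the same arrays of the lines together with those of the wild types. The difference of Col-7 minus Col-0 is added to that between the lines, so a gene that differs between the wild types alone can be called. QQS, not called between the lines (log2 fold change 2.25), was called here at 9.32 (limma adjusted p = 0.000315). The 530 are therefore not a count of line effects freed of the backgrounds. For NDB4 and AT2G04050 the difference of differences was 5.55 and 5.89, near their values between the lines. For AT3G28500 it was 3.40, for GSTU28 -2.88 and for SWEET11 -3.50. For AT3G24780 it was 0.57 (limma adjusted p = 0.68) and for AT4G33720 1.26 (limma adjusted p = 0.119), which were not called. AT2G18720 (3.33), AT2G18190 (2.03), AT4G30800 (0.86) and NDB2 (0.75) were not called either (limma adjusted p = 0.0999, 0.0518, 0.0716 and 0.0682). The same held for MCCA (-0.71, limma adjusted p = 0.102) and BCAT4 (0.74, limma adjusted p = 0.183), while AT2G32220 (0.79) and IVD (-0.94) stayed under the fold threshold (limma adjusted p = 0.0372 and 0.0287).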

How the data were processed

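The authors deposited MAS5 signals, a linear intensity per probe set of the ATH1 array, with the trimmed mean of every array at 500 (2% left out at each end). GeneSpring GX 10.0.1 is named in their series text, with no MAS5 version in the sources used here. Depth does not apply to arrays, and 3 arrays per group limit the precision. The median signal was 192 to 204, and on each array 46 to 333 signals below 1 were raised to 1 ahead of log2. Array correlations (Pearson r, log2) were 0.972 to 0.982 within sahy1, 0.972 to 0.979 within SAHY1OE and 0.944 to 0.954 between them. Those of sahy1 were 0.936 to 0.958 with Col-7 and 0.921 to 0.937 with Col-0, its labelled wild type.

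Of 22810 probe sets 64 controls were left out. A probe set was tested if some group had all 3 arrays at or above the array's 40th percentile (a signal of 110 to 122), below which signals are here called near background. Detection calls were not used. Group means of all 12 arrays were fitted with limma 3.58.1 in R 4.3.3 (eBayes, Benjamini-Hochberg), a shared spread for all groups. Genes are named only where the platform table gives 1 gene, which holds for 13513 probe sets. The named genes are the 15 largest rises and falls without overlap of arrays, SAHY1, up to 4 called members per list and direction, and up to 5 in each class of wild-type position and direction; genes named beside these (genes not called, adjacent pairs, the AAA-type ATPases, peroxidases, ATGSTF13, genes of amino acid breakdown, AT1G71140 and QQS) were chosen after their values were seen. The members and gene lists were chosen with earlier results of these data known. Families were matched by symbol, only expansins with a leading AT, and families of genes known by locus alone are background knowledge. Scripts were tested on simulated data. Alternatives were quantile normalization, median centring, adding 32, no filter, a 60th percentile filter, fits to 2 groups, a replicate block, the methods' unpaired t-test, an intensity trend and leaving out each array. Python 3.11.15, pandas 2.3.3 and matplotlib 3.10.9 made tables and figures. RefSeq (TAIR10.1) gave gene symbols, chromosomes and gene order, and sequences were not used here.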

Additional observations from a re-analysis of the deposited data

Results flagged for a closer look

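The results below were picked out because the effect of each line against its labelled wild type differed between the lines, by a limma test of the difference of differences (sahy1 minus Col-0 against SAHY1OE minus Col-7). It was called in 530 probe sets, and a difference between Col-7 and Col-0 also enters it. Among the named genes with the largest differences between the lines, it was positive for AT2G04050 (5.89), NDB4 (5.55), AT5G60250 (5.42), AT2G03130 (4.70), AT4G12490 (4.00), AT5G58610 (3.72), AT3G28500 (3.40), AT2G43660 (3.13), AT2G34340 (1.89) and AT1G65370 (1.59) on the log2 scale. It was negative for SAHY1 (-9.34), AT4G09110 (-4.17), SWEET11 (-3.50), AT4G24350 (-3.49), AT1G80320 (-3.40), AT1G34510 (-3.30), GSTU28 (-2.88), AT1G79990 (-2.42), AT1G52820 (-2.26), AT4G16000 (-2.15), AT5G19800 (-2.09), AT3G12540 (-2.05) and AT3G49960 (-1.70). SWEET11 and AT4G12490 were also called between Col-7 and Col-0 (-1.39 and 1.59). All genes listed here were picked by their difference between the lines, which is itself part of the difference of differences. Its sign and much of its size were therefore set by that choice. AT2G04050, NDB4, AT5G60250, AT2G03130, AT5G58610, AT3G28500 and AT2G43660 also passed the filter in sahy1 alone, which favours a difference between the lines.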

How the results depend on the processing

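The 299 calls between sahy1 and SAHY1OE (159 higher, 140 lower) became 191 (104 and 87) after adding 32, 156 (81 and 75) with the 60th percentile filter and 44 (26 and 18) with the methods' t-test. Quantile normalization gave 307 calls, 288 of them shared with the 299, with 48.2% higher, median centring 301 and no filter 276, of which 221 were shared. With each array left out in turn the counts were 254 to 344 in all, 138 to 186 higher and 116 to 165 lower. SAHY1 kept its direction, from -9.90 to -7.73 on the log2 scale over these, and at -8.99 missed the threshold with the methods' t-test (adjusted p = 0.0834). Col-7 against Col-0 gave 250 calls, 147 with the 60th percentile filter, 25 with the methods' t-test and 235 to 273 with arrays left out. The difference of differences gave 530 calls, 283 with no filter, 332 with the 60th percentile filter and 460 to 546 with arrays left out. It was not run with fits to 2 groups or with the t-test, which cannot hold 4 groups.

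No direction turned among 80 other named results. The t-test lost 61 of these calls, no filter 16, adding 32 lost 13, and leaving out some array 22. With the 60th percentile filter 46 of the 80 were still tested and stayed called, and the others were not tested. The same replicate numbers did not pair the samples (Pearson r of deviations 0.06, 0.07 and -0.09), and a fit with the replicate block gave 308 calls, 299 of them shared, and changed none of the 80. Signals near background limit the size of folds.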
